A study of Homo sapiens with 8 samples.

Results

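CCL20, the ligand of the chemokine receptor CCR6, was examined together with 9 other target and feedback genes of the transcription factor NF-κB in colorectal cancer cells with and without knockdown of NAT10, the enzyme that writes N4-acetylcytidine on RNA. The 10 genes, of 17309 in the count table, were the chemokines CCL20, CXCL1, CXCL2, CXCL3, CXCL8 and CXCL16 and the NF-κB regulators TNFAIP3, NFKBIA, BIRC3 and RELB. They were chosen by the measured fold change of CCL20, which was among the larger decreases after knockdown in both cell lines, so its own knockdown values are given as a description and without a test.

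The human colorectal adenocarcinoma lines SW480 and DLD-1 were each infected with lentivirus carrying a control hairpin (shControl, genotype labelled WT) or a hairpin against NAT10 (shNAT10, labelled NAT10 knockdown), and poly(A) RNA was sequenced. There were 4 groups of 2 libraries, 8 in all. The labels call the libraries of a group biological replicates and say nothing about separate infections, so p-values measure the spread between these libraries only. Hairpins named shNAT10-1 and shNAT10-2 were designed in the study, and the labels do not say which was sequenced. Summed over transcripts, a library held 15147805 to 17271336 estimated counts. NAT10 itself was measured at 122.3 and 122.5 CPM (estimated counts scaled to the normalised library size) in SW480 shControl and at 23.6 and 27.9 CPM in SW480 shNAT10, and at 121.1 and 120.5 CPM in DLD-1 shControl against 59.0 and 54.4 CPM in DLD-1 shNAT10. It thus fell to 21.0% of control in SW480 (log2 fold change −2.25 ± 0.0869 SE, adjusted p = 3.7e-09) and to 46.9% in DLD-1 (−1.09 ± 0.0812, adjusted p = 2.7e-05), and the knockdown was deeper in SW480 (difference −1.16 ± 0.118, adjusted p = 0.0015, all edgeR quasi-likelihood tests with Benjamini-Hochberg adjustment over 13619 genes). The call on that difference was lost without DLD-1 shNAT10 replicate 1 (adjusted p = 0.07), with curated transcripts only (0.076) and on log2 FPKM with a pseudocount of 1 (0.14) or 0.1 (0.084), at differences from −1.18 to −1.09.

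NF-κB dimers are held in the cytoplasm by IκB proteins, of which NFKBIA encodes IκBα. Stimuli such as tumour necrosis factor cause IκB to be degraded, and the freed dimers enter the nucleus and bind κB sites in the promoters of chemokine genes. The same dimers switch on their own inhibitors, NFKBIA and the ubiquitin-editing enzyme TNFAIP3 (A20), so the response limits itself. Epithelial cells use the pathway to call in leukocytes: CXCL1, CXCL2, CXCL3 and CXCL8 draw neutrophils through CXCR2, CCL20 draws CCR6-bearing lymphocytes and dendritic cells, and membrane-bound CXCL16 is shed by ADAM10 and ADAM17 as a ligand of CXCR6.

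RefSeq promoter windows (GRCh38.p14, 250 bases before to 50 after the start) matched 8 of the 10 genes; RELB and CXCL16 had none in the table. The κB consensus, searched on both strands, matched in 7 of the 8 windows (87.5%), against 13.4% of 16185 windows of tested genes and 11.3% of all 35116 windows. Some genes have several windows in that table, and each of the 8 genes had 1. The literal GGAATTTCC, searched on both strands after the windows had been read and overlapping the consensus, was in 5 of 8 (CXCL1, CXCL2, CXCL3, CXCL8 and NFKBIA), against 0.47% of the windows of tested genes. CXCL8 matched only the literal. The matched stretches are shown because the genes were listed as NF-κB targets; they are written 5′ to 3′ on the strand of the gene, with the match in capitals, and the matches of CCL20, BIRC3, NFKBIA and TNFAIP3 read as the consensus on the opposite strand.
CCL20, chr2:227813754-227813781: gatcaatggGGAAAACCCCatgtggcaa
CXCL1, chr4:73869305-73869332: tggaactccGGGAATTTCCctggcccgg
CXCL2, chr4:74099255-74099282: tggagctccGGGAATTTCCctggcccgg
CXCL3, chr4:74038750-74038777: tggagctccGGGAATTTCCctggcccgg
CXCL8, chr4:73740469-73740495: gcaaatcgtGGAATTTCCtctgacata
NFKBIA, chr14:35404812-35404839: gactggcttGGAAATTCCCcgagcctga
TNFAIP3, chr6:137867195-137867222: aagtcccgtGGAAATCCCCgggcctaca
BIRC3, chr11:102317276-102317303: ttgggtcatGGAAATCCCCgagtgggtt
CXCL2, CXCL3 and NFKBIA lie on the minus strand and the others on the plus strand. The match began 79 bases before the start in CCL20, 79 in CXCL1, 78 in CXCL2, 79 in CXCL3, 91 in CXCL8 and 81 in NFKBIA. In BIRC3 it began 199 bases before the start, with a further match at 135, and in TNFAIP3 55 bases before, with a further match at 67; the TNFAIP3 window lies inside the annotated gene. The stretches shown for CXCL2 and CXCL3 were identical, and over the 300-base windows CXCL1, CXCL2 and CXCL3 shared 78.7 to 84.7% of bases, against 54.7 to 60.3% between them and CXCL8 or CCL20 or between CXCL8 and CCL20. A match is a description of the sequence, and binding was not measured.

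CCL20 (gene 6364, chr2:227813842-227817556) was lower after NAT10 knockdown in both lines. In SW480 it stood at 4.7 and 4.6 CPM in shControl and at 1.9 and 2.2 CPM in shNAT10, resting on 80 and 78 against 33 and 37 estimated counts. In DLD-1 it stood at 50.6 and 43.7 CPM in shControl and at 32.5 and 31.8 CPM in shNAT10, from 861 and 739 against 552 and 484 counts. No knockdown library reached its controls in either line, a placement that 6.26% of all tested genes had. CCL20 was chosen for its decrease, so this placement and the values that follow are a description only. The log2 fold change was −1.17 ± 0.187 (SE) in SW480, a level 44.4% of control, and −0.55 ± 0.092 in DLD-1, 68.2% of control. When any 1 library was left out, the SW480 value stayed within −1.25 to −1.09 and the DLD-1 value within −0.65 to −0.44. The mean over both lines was −0.86 ± 0.104, and the log2 value in SW480 minus that in DLD-1 was −0.62 ± 0.21, given without a test; SW480 was also the line in which NAT10 was lowered more. These are bulk libraries, in which fewer expressing cells and less RNA per cell cannot be told apart. CCL20 has 2 transcripts in the count table, and the one with more reads held 55.2 to 88.8% of the CCL20 counts in SW480 and 60.6 to 67.6% in DLD-1. In DLD-1, where the counts are larger, that transcript went from 569.39 and 448.17 counts in shControl to 372.9 and 297.13 in shNAT10, and the other from 291.61 and 290.83 to 179.1 and 186.87, so both were lower.

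**Figure D1:**
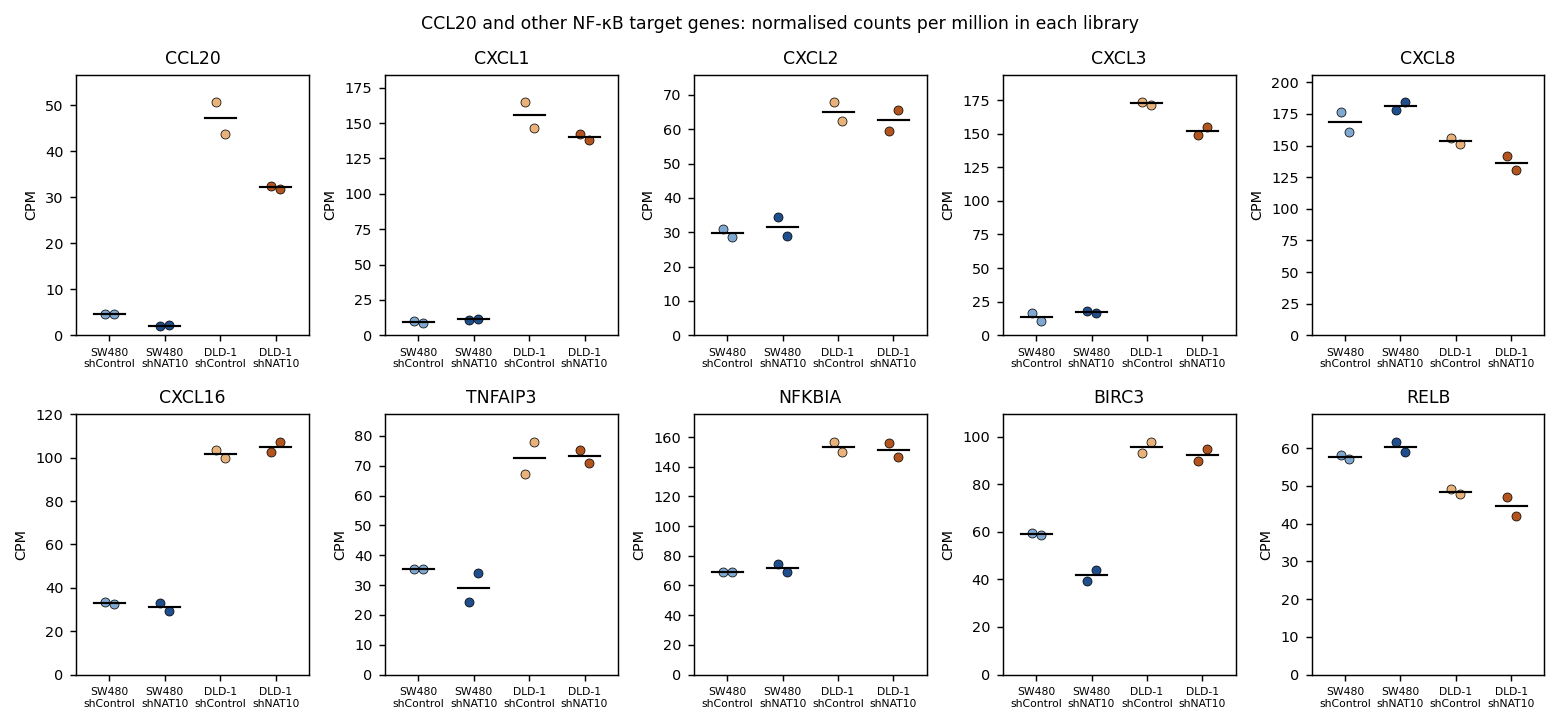
Normalised read counts (CPM, vertical axes from 0, scaled per gene) of the 10 genes in each of the 8 libraries, with points for libraries and bars for the means of 2. CCL20 lies at 4.7 and 4.6 against 1.9 and 2.2 CPM in SW480 and at 50.6 and 43.7 against 32.5 and 31.8 CPM in DLD-1, while BIRC3 separates in SW480 and overlaps in DLD-1.

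Of the 9 members tested after knockdown, which leave out CCL20, only BIRC3 was called. BIRC3 (gene 330, chr11:102317484-102339403) encodes the ubiquitin ligase cIAP2 of the tumour necrosis factor receptor complex. It measured 59.6 and 58.7 CPM in SW480 shControl and 39.5 and 44.1 CPM in SW480 shNAT10. In DLD-1 it measured 93.3 and 97.9 CPM in shControl and 89.8 and 94.8 CPM in shNAT10. The groups were apart in SW480 and overlapped in DLD-1. BIRC3 fell in SW480 (log2 fold change −0.50 ± 0.0794, adjusted p = 0.0072), to 70.7% of control, and measured −0.05 ± 0.0746 in DLD-1 (adjusted p = 0.98, 95% interval −0.21 to 0.11). The difference between the lines, −0.45 ± 0.109, had an unadjusted p of 0.001 and an adjusted p of 0.4 (edgeR), so it did not pass (for the difference, 0 members were called lower or higher, against 0.00734% and 0% of all genes). It passed without SW480 shNAT10 replicate 2 (−0.53, adjusted p = 0.03). The SW480 call was lost without SW480 shControl replicate 1 (adjusted p = 0.084) or replicate 2 (0.096), with each line fitted alone (0.063) and when only curated transcripts were counted (0.12), and the log2 value stayed between −0.58 and −0.42 over all alternatives. Over both lines together BIRC3 fell by 0.28 ± 0.0545 on the log2 scale (adjusted p = 0.03), the 1 of the 9 genes called lower there, where 0.565% of all genes were, with 0 called higher, against 0.455%. Without 1 library the adjusted p ran from 0.0039 to 0.22 and only the fit without SW480 shNAT10 replicate 2 kept the call. Of its 50-base windows, 0.155% also occur in BIRC2, its close relative.

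Counted over the 9 genes other than CCL20, 1 was called lower in SW480 (BIRC3), where 0.903% of all tested genes were, and 0 were called higher, against 0.778%. In DLD-1 0 were called in either direction, against 0.0147% lower and 0% higher. Unadjusted p-values under 0.05 were reached by 2 of the 9 genes in the lower and 2 in the higher direction in SW480 (10.6% and 8.69% of all genes) and 1 was lower and 0 higher in DLD-1 (2.94% and 3.03%). DESeq2 called the same numbers of members in both lines. By the limits used in the study, a fold above 1.2 or below 0.83 with an unadjusted p under 0.05, TNFAIP3 and BIRC3 were lower and CXCL3 was higher in SW480 (4.98% and 4.1% of all genes), and no member passed in DLD-1 (1.34% and 1.34%). The median log2 fold change of the 9 genes was 0.0685 in SW480, where that of all genes was −0.00946, and −0.0571 in DLD-1, where that of all genes was 0.

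CXCL1, CXCL2 and CXCL3, the closely related GRO chemokines that lie together on chromosome 4, did not pass the test in either line. CXCL1 (gene 2919, chr4:73869393-73871308) measured 10.4 and 8.6 CPM in SW480 shControl and 11.1 and 11.6 CPM in shNAT10, and 164.6 and 146.3 against 142.6 and 138.4 CPM in DLD-1. The shNAT10 libraries thus lay above control in SW480 (0.26 ± 0.122, adjusted p = 0.26) and below control in DLD-1 (−0.15 ± 0.0797, adjusted p = 0.89). CXCL3 (gene 2921, chr4:74036589-74038689) measured 16.2 and 10.8 CPM in SW480 shControl and 17.9 and 16.8 CPM in shNAT10, and 173.2 and 171.7 against 148.9 and 155.3 CPM in DLD-1. It showed the same placement, at 0.36 ± 0.14 in SW480 (adjusted p = 0.18) and −0.18 ± 0.102 in DLD-1 (adjusted p = 0.89). Its SW480 value rests on 1 control library: it was 0.69 (adjusted p = 0.041) without shControl replicate 1 and 0.10 (adjusted p = 0.83) without replicate 2. CXCL2 (gene 2920, chr4:74097040-74099195) overlapped between groups in both lines, with 31.0 and 28.6 against 34.3 and 28.8 CPM in SW480 and 67.8 and 62.5 against 59.6 and 65.6 CPM in DLD-1. These 3 mRNAs share sequence, and 5.73% of the 50-base windows of CXCL1, 9.24% of CXCL2 and 5.26% of CXCL3 occur in another of them, so reads from those windows are divided by estimate. Summed to 1 feature, they gave 0.19 ± 0.0885 in SW480 (adjusted p = 0.25) and −0.15 ± 0.0781 in DLD-1 (adjusted p = 0.88).

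CXCL8 (gene 3576, chr4:73740569-73743716), interleukin-8, measured 176.5 and 160.7 CPM in SW480 shControl against 177.8 and 184.1 CPM in shNAT10. In DLD-1 it measured 155.8 and 151.0 against 142.1 and 130.4 CPM. Neither value passed, at 0.10 ± 0.0697 in SW480 (adjusted p = 0.45) and −0.17 ± 0.0705 in DLD-1 (unadjusted p = 0.03, adjusted p = 0.82). CXCL16 (gene 58191, chr17:4733533-4739928), a transmembrane chemokine, overlapped between groups in both lines, with 33.5 and 32.4 against 33.1 and 29.5 CPM in SW480 and 103.7 and 99.6 against 102.8 and 107.3 CPM in DLD-1. Its fold changes were −0.074 (95% interval −0.25 to 0.11) in SW480 and 0.048 (−0.11 to 0.21) in DLD-1 on the log2 scale.

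Among the feedback genes, NFKBIA (gene 4792, chr14:35401513-35404749) measured 69.2 and 68.8 against 74.2 and 69.0 CPM in SW480 and 156.8 and 150.0 against 155.8 and 146.4 CPM in DLD-1. Its 95% intervals were −0.10 to 0.21 and −0.17 to 0.12 on the log2 scale. TNFAIP3 (gene 7128, chr6:137866349-137883312) measured 35.3 and 35.5 CPM in SW480 shControl and 24.3 and 33.9 CPM in shNAT10, and 67.1 and 78.0 against 75.3 and 70.9 CPM in DLD-1. Its SW480 value of −0.28 ± 0.125 (adjusted p = 0.24) depended on 1 library, being −0.54 (adjusted p = 0.0064) without shNAT10 replicate 2 and −0.064 (adjusted p = 0.89) without shNAT10 replicate 1. RELB (gene 5971, chr19:45001464-45038192), the subunit of the non-canonical pathway, measured 58.1 and 57.1 against 61.7 and 59.1 CPM in SW480 and 49.1 and 47.8 against 47.1 and 42.0 CPM in DLD-1. Its log2 fold changes were 0.069 ± 0.0762 (adjusted p = 0.66) and −0.12 ± 0.0789 (adjusted p = 0.92).

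**Figure D2:**
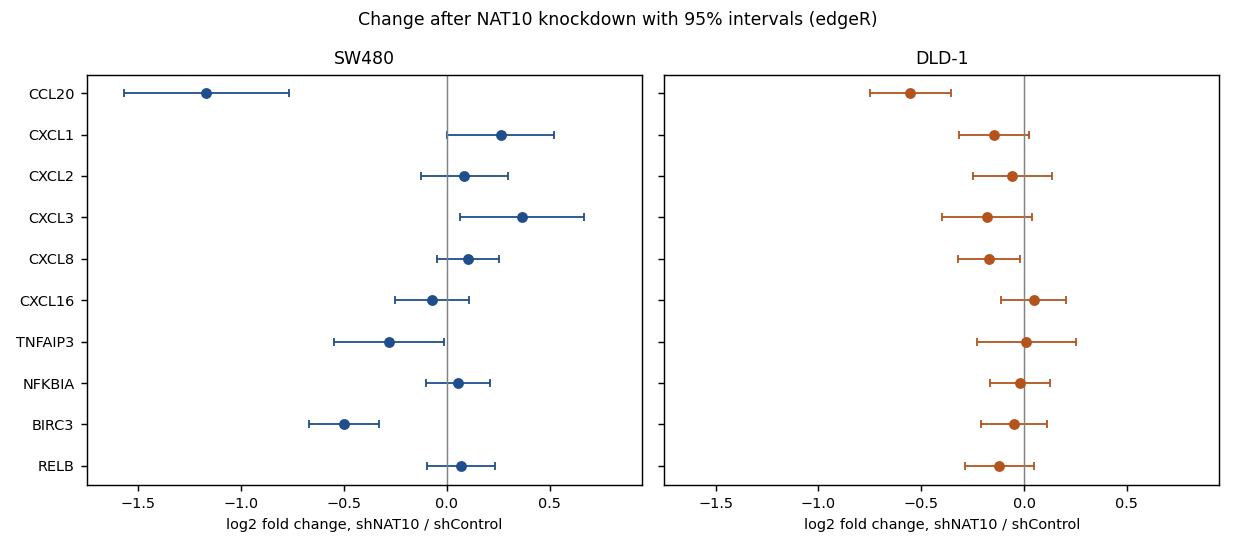
Log2 fold change of shNAT10 over shControl (horizontal axis) for each of the 10 genes in SW480 and in DLD-1, with 95% intervals from the fit over all 4 groups. CCL20 was chosen for its decrease, so its intervals are a description and not a test. CCL20, at −1.17 and −0.55, lies left of 0 in both panels. CXCL1, CXCL2, CXCL3, CXCL8, NFKBIA and RELB lie right of 0 in SW480 and left of it in DLD-1. Whole intervals lie left of 0 for BIRC3 and TNFAIP3 in SW480 and CXCL8 in DLD-1. For CXCL1 and CXCL3 in SW480 they lie right of 0. Of these 5 genes only BIRC3, in SW480, was called after adjustment.

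By the placement of the libraries alone, and leaving out CCL20, 2 of the 9 genes had both shNAT10 libraries below both controls in SW480 (TNFAIP3 and BIRC3), which held for 26.2% of all tested genes, and 4 had both above (CXCL1, CXCL3, CXCL8 and RELB), against 21.7%. In DLD-1 4 were below (CXCL1, CXCL3, CXCL8 and RELB), against 18.2%, and 0 above, against 17.7%. None of the 9 was below in both lines, a placement that 6.26% of all genes had. The 4 genes above in SW480 and below in DLD-1 shared that placement with 3.08% of all genes, and for none of them did the difference between the lines pass (adjusted p = 0.47 for CXCL3, 0.49 for CXCL1, 0.49 for CXCL8 and 0.59 for RELB, edgeR).

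The lines differed in the base levels of these genes, above all in CXCL1, CXCL3 and CCL20. Comparing the shControl groups, 8 of the 10 genes were lower in SW480 than in DLD-1, where 35.6% of all tested genes were, and 1 was higher, where 38.1% were. CXCL1 was 16.4-fold (log2 difference −4.03 ± 0.102, adjusted p = 9.6e-14), CXCL3 12.8-fold (−3.67 ± 0.125, adjusted p = 2.2e-12) and CCL20 10.2-fold lower in SW480 (−3.35 ± 0.118, adjusted p = 3.3e-12). CXCL16 was 3.08-fold, NFKBIA 2.22-fold, CXCL2 2.19-fold, TNFAIP3 2.05-fold and BIRC3 1.62-fold lower, with adjusted p-values up to 1.7e-06. RELB was higher in SW480 (0.25 ± 0.0773, adjusted p = 0.0096), a call lost without SW480 shControl replicate 1 or DLD-1 shControl replicate 2 (highest adjusted p = 0.061). CXCL8 did not pass (0.14 ± 0.07, adjusted p = 0.092). It passed in edgeR fits with a filter of 10 counts in every library and with a replicate block (lowest adjusted p = 0.035).

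Levels of different genes are compared per transcript length, as FPKM (fragments scaled for transcript length and library depth). In SW480 shControl CXCL8 came first at 128 ± 7.1 FPKM (SD, n = 2), followed by NFKBIA at 54.1, CXCL2 at 35.8, RELB at 29.4, CXCL16 at 17.1, CXCL3 at 20.4 and 13.6 in its libraries, CXCL1 at 10.6, BIRC3 at 9.25, CCL20 at 8.39 and TNFAIP3 at 8.22; only CXCL16 and CXCL3 overlapped with their neighbour. In DLD-1 shControl CXCL3 came first at 213 ± 2.0 FPKM, followed by CXCL1 at 171, NFKBIA at 119, CXCL8 at 116, CCL20 at 83.2, CXCL2 at 76.7, CXCL16 at 52.6, RELB at 24.5, TNFAIP3 at 16.6 and BIRC3 at 15.3, where the pairs NFKBIA and CXCL8, CCL20 and CXCL2, and TNFAIP3 and BIRC3 overlapped. After knockdown in DLD-1 CCL20, at 58.1 ± 1.5 FPKM, stood below CXCL2 at 75.0 ± 4.7 with no overlap. CXCL8 made up 57.7 to 59.8% of the summed FPKM of the 6 chemokines in the 3 SW480 libraries with all values and 15.8 to 16.7% in DLD-1. CCL20 made up 3.72 and 4.03% in SW480 shControl and 1.5% in the shNAT10 library with a value, and 11.1 and 12.2% in DLD-1 shControl against 8.9 and 9.24% in shNAT10. FPKM values of SW480 shNAT10 replicate 2 stop partway, and CCL20, CXCL1 and TNFAIP3 have none there.

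**Figure D3:**
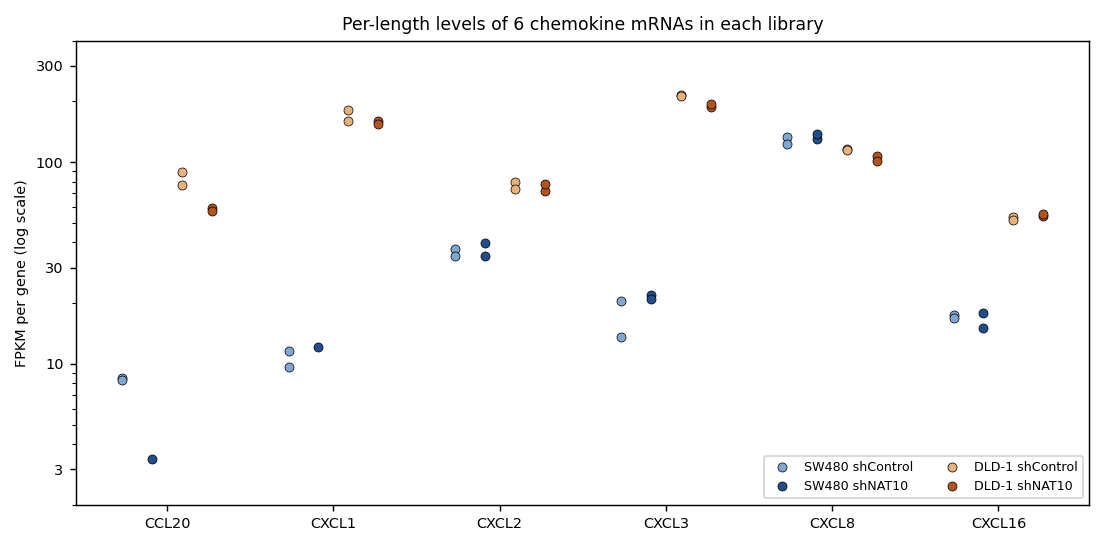
FPKM of the 6 chemokine genes (log axis) in each library with a value, coloured by group; CCL20 and CXCL1 lack a value in SW480 shNAT10 replicate 2. CXCL8 averages 104 to 134 FPKM over the 4 groups, whereas CCL20 is at 8.39 in SW480 shControl and 83.2 in DLD-1 shControl on average.

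The lists of other genes of the pathway held 105 tested genes. In SW480 edgeR called 2 of them lower (1.9%, against 0.903% of all genes) and 1 higher (0.952%, against 0.778%), where DESeq2 called 1 and 3, and in DLD-1 neither tool called any. Among 9 NF-κB subunits and inhibitors, 0 were called lower and 1 higher in SW480: NFKBIB, which encodes IκBβ, rose from 57.7 and 56.4 CPM to 78.3 and 69.3 CPM (0.37, adjusted p = 0.03), and measured 37.9 and 39.9 against 39.8 and 39.8 CPM in DLD-1 (0.033, adjusted p = 1). That call was kept in 1 of 8 fits without a library. REL and RELA, subunits with the highest CPM of the list, measured −0.20 and −0.06 in SW480 and −0.08 and 0.05 in DLD-1 on the log2 scale, with adjusted p-values from 0.18 to 0.98. Among 40 tested genes of NF-κB signalling 0 were called in either line, and at an unadjusted p under 0.05 SW480 had 12 lower (30%, against 10.6% of all genes) and 4 higher (10%, against 8.69%) and DLD-1 0 lower and 1 higher (2.5%, against 3.03%). The median of these 40 genes was −0.0577 in SW480, where that of all genes was −0.00946. Those with the highest CPM, the kinase gene IRAK1 and the ubiquitin ligase gene RBCK1, measured 0.07 and 0.03 in SW480 and 0.09 and 0.01 in DLD-1.

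Among 28 tested other target genes of NF-κB, 2 were called lower in SW480 (7.14%, against 0.903% of all genes) and 0 higher (against 0.778%). TNFRSF9, which encodes the costimulatory receptor 4-1BB, measured 49.9 and 49.9 CPM in SW480 shControl and 36.2 and 36.9 CPM in shNAT10 (−0.45, adjusted p = 0.013), and 11.5 and 10.8 against 8.0 and 7.7 CPM in DLD-1 (−0.50, adjusted p = 0.21). It fell in SW480, and over both lines together by 0.47 on the log2 scale (adjusted p = 0.0037), and the SW480 call was lost without either SW480 shControl library (highest adjusted p = 0.22), with curated transcripts only (0.15), with each line fitted alone (0.077) and on log2 FPKM (0.066 and 0.092). The call over both lines was lost with curated transcripts only (0.077) and on log2 FPKM (0.05 and 0.057). TNFAIP2 fell in SW480 from 85.5 and 81.7 CPM to 68.1 and 65.8 CPM (−0.32, adjusted p = 0.04), a call kept in 1 of 8 fits without a library, and stood at only 2.5 to 3.2 CPM in DLD-1. SOD2, the mitochondrial superoxide dismutase, and LCN2, the iron-scavenging lipocalin, had the highest CPM of these genes and measured −0.17 and −0.13 in SW480 and 0.02 and −0.03 in DLD-1, none of which passed. Unadjusted p-values under 0.05 were reached by 6 genes in the lower (21.4%, against 10.6% of all genes) and 3 in the higher direction (10.7%, against 8.69%) in SW480. In DLD-1 0 of the 28 were called, and 3 lower (10.7%, against 2.94%) and 1 higher (3.57%, against 3.03%) reached that limit. The median of the list was −0.138 in SW480 over the 27 genes with more than 3 counts in a group, and −0.0318 in DLD-1.

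Of 36 other chemokine genes 28 were in the table and 11 were tested, and 0 of these were called in either line. At an unadjusted p under 0.05, 0 were lower and 0 higher in SW480, and 0 lower and 2 higher (18.2%) in DLD-1. Of all tested genes 10.6% were lower and 8.69% higher at that limit in SW480, and 2.94% and 3.03% in DLD-1. CXCL5, another CXCR2 ligand, stood at 239.1 and 253.6 against 221.9 and 244.2 CPM in SW480 and 4040 and 4082 against 3618 and 3770 CPM in DLD-1 (−0.08 and −0.14, adjusted p = 0.59 and 0.88). CX3CL1, or fractalkine, measured −0.06 in SW480 and 0.17 in DLD-1. Among the receptors and sheddases of these chemokines, CCR6, the receptor of CCL20, had at most 7 counts in a library and CXCR1 at most 1, below the filter on low counts. ADAM10 and ADAM17 measured −0.15 and −0.24 in SW480 and 0.03 and 0.00 in DLD-1. Of the 4 tested genes 0 were called, with 1 lower in SW480 at an unadjusted p under 0.05 (25%, against 10.6% of all genes). Among 13 transcription factors that act beside NF-κB at some of these promoters, of the AP-1 and ETS families with EGR1 and CEBPB added, 0 were called. At an unadjusted p under 0.05, 1 was lower and 1 higher in SW480 (7.69% each, against 10.6% and 8.69% of all genes). In DLD-1 0 were lower and 2 higher (15.4%, against 3.03%). ETS2 and FOSL1, with the highest CPM, measured 0.05 and 0.11 in SW480 and 0.14 and 0.15 in DLD-1.

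**Figure D4:**
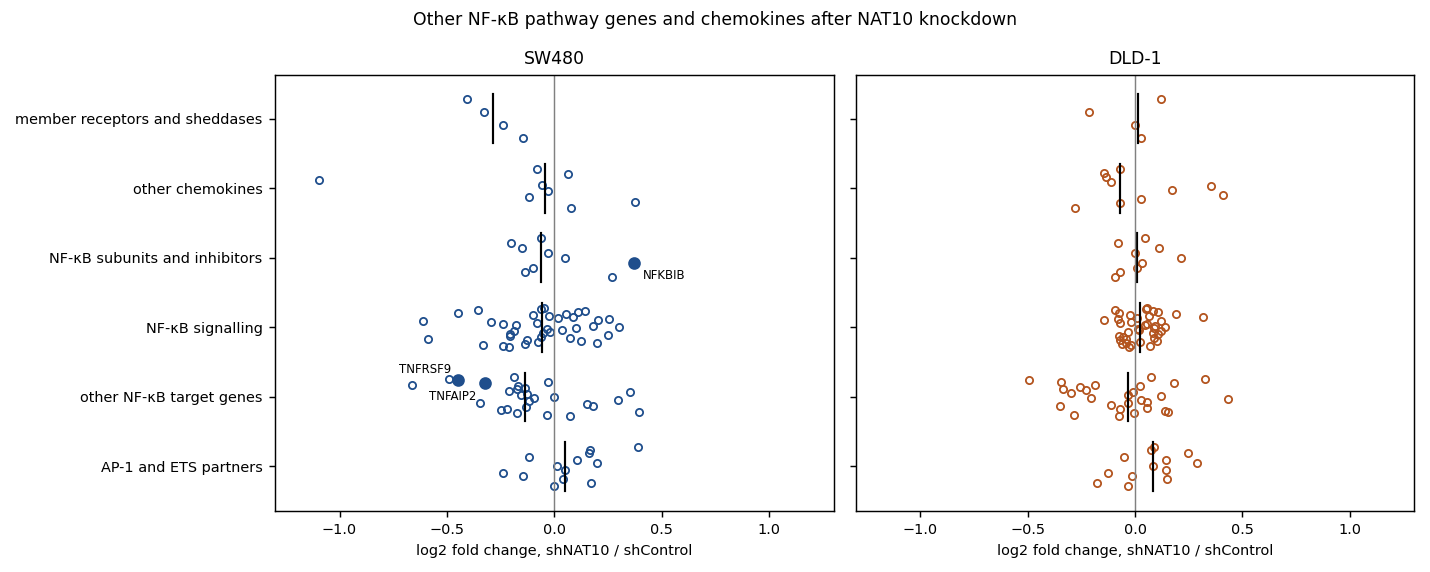
Log2 fold change of shNAT10 over shControl (horizontal axis) for the tested genes of 6 lists in SW480 and DLD-1, leaving out genes with at most 3 counts in both groups. Each circle is a gene, black bars are list medians, and filled circles with names are the 3 genes called in SW480, NFKBIB at 0.37, TNFAIP2 at −0.32 and TNFRSF9 at −0.45.

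The 8 epithelial marker genes summed to 3167 to 3926 CPM in SW480 and 7499 to 8093 CPM in DLD-1. Among them EPCAM and the keratin genes KRT8 and KRT18 were present in every library, while KRT20, a keratin of differentiated colon epithelium, averaged 0.0879 CPM in SW480 shControl and 19.1 CPM in DLD-1 shControl. Of 9 immune and stromal markers PTPRC and MS4A1 were not found in the count table. The other 7 summed to 19.7 to 34.9 CPM, of which CD68 alone made up to 30.7 CPM. CD3E, COL1A2 and PECAM1 had at most 3 counts in a library. Of the 12 tested markers 0 were called after knockdown in either line by edgeR. At an unadjusted p under 0.05 in SW480, 1 was lower (CDH1) and 3 were higher (KRT8, KRT19 and CDX2), all epithelial. These were 12.5% and 37.5% of the 8 epithelial genes, against 10.6% and 8.69% of all genes. In DLD-1 0 markers reached that limit, against 2.94% lower and 3.03% higher of all genes.

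Across the 8 libraries the genes whose log CPM ran most like that of CCL20 were KIAA0040 and LNPEP (Pearson r = 0.998 each), ATP1B1 and MTX3 (0.997 each) and PTBP3 (0.996), out of 13576 genes. These correlations follow the difference between the lines, and CXCL8 and RELB ran the other way at −0.824 and −0.906. With the mean of each line subtracted, the ranks follow the decrease after knockdown for which CCL20 was chosen, so they are given as a description only: NAT10 itself came first (r = 0.993), followed by TARS2 and SAMD13 (0.991 each) and PLEKHA1 and SLC20A1 (0.990 each). BIRC3 stood at rank 236 (0.903) and TNFAIP3 at rank 2606 (0.569), whereas r was negative for CXCL1 (−0.399) and CXCL3 (−0.442). These r pool both lines. CXCL1 and CXCL3 lay above control in SW480, opposite to CCL20, but below control in DLD-1 (log2 fold changes −0.15 and −0.18), as CCL20 did. Each value describes the same 8 libraries, which share their groups and depth.

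The guide strands of both NAT10 hairpins are shown, 5′ to 3′ with the seed (bases 2 to 8) in capitals, because a hairpin can lower other mRNAs through seed matches in their 3′UTRs.
shNAT10-1 guide: tTTCAAGAcagctttggcc
shNAT10-2 guide: tTCATCTAggtcgtcactg
In the longest GENCODE 29 3′UTR of each gene, the site of the shNAT10-1 seed, TCTTGAA, was in 0 of the 10 members, against 20.6% of 13456 tested genes, and that of shNAT10-2, TAGATGA, was in CXCL1 and TNFAIP3, with 1 site each, against 10.6%. CCL20 and BIRC3 held neither. Of the 3 list genes called in SW480, TNFRSF9 held 3 sites for shNAT10-1, in a 3′UTR of 4944 bases where the median of tested genes was 1328, and 0 for shNAT10-2, and NFKBIB and TNFAIP2 held 0 for both. The AU-rich element ATTTATTTA, searched on the mRNA strand with overlapping matches counted, was in the 3′UTRs of 4 of the 10 members, with 4 copies in CXCL2, 3 in BIRC3, 2 in CXCL1 and 1 in CXCL8, against 7.43% of tested genes, and CCL20 had 0. The shorter ATTTA was in the 3′UTR of every member but RELB, with 3 copies in CCL20, 7 in CXCL3 and 12 in BIRC3. Its share over tested genes is not given. These are matches of letters, and neither repression nor decay was measured.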

How the data were processed

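The authors deposited estimated counts per RefSeq transcript, not normalized, and FPKM values per library; the submitters' processing notes name HISAT2 2.0.4, Bowtie2 2.2.5, RSEM 1.2.12 and hg38, with no roles. Estimated counts of 78953 transcripts were summed per gene and rounded, giving 15147805 to 17271336 per library, because the counting had split shared reads over transcripts. Gene symbols were found for 99.3% of identifiers. edgeR 4.0.16 (R 4.3.3) fitted the 4 groups together with TMM scaling, the default filter (13619 genes kept, all 10 members among them), quasi-likelihood tests and Benjamini-Hochberg adjustment, with calls at an adjusted p of 0.05. CPM are TMM-normalised, a 95% interval uses the fit's degrees of freedom, and FPKM per gene is the sum over transcripts. FPKM of SW480 shNAT10 replicate 2 stop partway, leaving 14655 transcripts (18.6%) without one. The test was tried on simulated counts first. Alternatives were DESeq2 1.42.0, limma 3.58.1 on log2 FPKM with pseudocounts of 1 and 0.1, other scaling, filters and fits, curated transcripts only, a replicate block and each library left out. Genes named were the members, NAT10, each list's called genes (at most 6) and its 2 genes of highest CPM, and the 5 genes most like CCL20 by each measure; KRT8, KRT18, EPCAM, KRT20, CD68, CCR6 and other markers or receptors at the extremes were added after their values were seen. The members and lists were chosen with earlier results of these data known, and the merging of CXCL1, CXCL2 and CXCL3 was chosen after seeing the data.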

Additional observations from a re-analysis of the deposited data

Results flagged for a closer look

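For 4 members every shNAT10 library lay above both controls in SW480 and below both in DLD-1, and the difference between the lines was tested. The 4 were picked by this placement in the same libraries, so their unadjusted p-values are a description only. The log2 effect in SW480 minus that in DLD-1 was 0.41 for CXCL1 (unadjusted p = 0.014, adjusted p = 0.49), 0.55 for CXCL3 (unadjusted p = 0.007, adjusted p = 0.47), 0.27 for CXCL8 (unadjusted p = 0.016, adjusted p = 0.49) and 0.19 for RELB (unadjusted p = 0.11, adjusted p = 0.59) by edgeR, and none passed. Over the alternatives tried on CXCL1, CXCL3, CXCL8 and RELB the adjusted p of this difference never fell under 0.05. Of all tested genes 3.08% had the same placement of libraries.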

How the results depend on the processing

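CCL20 kept its direction in SW480 and DLD-1 under all alternatives run. With 2 libraries per group, leaving out 1 leaves a lone library that is assumed to vary like the other groups; this moved the members called lower in SW480 between 0 and 2 and those called higher between 0 and 1, the members called lower over both lines between 0 and 2 and in the difference between the lines between 0 and 2, and the members higher in SW480 than DLD-1 between 0 and 1. For the other lists the same fits gave 0 to 15 lower and 0 to 9 higher in SW480, 0 to 1 higher in DLD-1, 1 to 8 lower and 0 to 7 higher over both lines, and 0 to 3 lower and 0 to 2 higher in the difference. Over all genes, the calls in SW480 were 123 lower and 106 higher, and ranged from 7 to 1156 and from 9 to 1023 without 1 library, highest without SW480 shNAT10 replicate 2. In DLD-1, with 2 and 0 calls, they ranged from 1 to 10 and from 0 to 21, and over both lines, with 77 and 62, from 14 to 629 and from 13 to 557. In the difference between the lines, calls over all genes were also highest in both directions without SW480 shNAT10 replicate 2. The highest counts of members and of the other lists in the difference came from that same fit. The rise there was thus not limited to these genes. Among the other alternatives all-gene calls in SW480 ranged from 8 (curated transcripts) to 920 (replicate block) lower and from 14 to 734 higher. Curated transcripts alone gave 0 members lower in SW480 and 0 over both lines, and each line fitted alone gave 0 in SW480. The filter of 1 count, log2(FPKM + 1) and log2(FPKM + 0.1) gave 0 lower over both lines, and the filter of 10 counts gave 2 members higher in SW480 than DLD-1. DESeq2 called 1 gene of the other lists lower and 3 higher in SW480. The cause was not tested.

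The labels number the replicates, but the numbers share no stated source: deviations of same-numbered libraries correlated at 0.128 within SW480 and 0.0363 within DLD-1, and between −0.00535 and 0.124 over the other 4 pairs of groups. Not every pair exceeded 0.1, so the numbers were not taken to pair the libraries. With the replicate block 1 member was called higher in SW480 (CXCL3), 1 lower in the difference between the lines (BIRC3, adjusted p = 0.018) and 2 higher in SW480 than DLD-1, and the other lists gave 12 lower and 7 higher in SW480, 1 lower and 1 higher in DLD-1, and 4 lower and 7 higher over both lines. Over all genes the block called 920 lower and 734 higher in SW480, 29 and 36 in DLD-1, and 435 and 397 over both lines. In the difference between the lines it called 102 genes lower and 107 higher, where the main fit called 1 and 0. Comparing the shControl groups, it called 5420 genes higher in SW480 than in DLD-1.

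Values near 0 changed sign. With curated transcripts only, TNFAIP3 in DLD-1 was −0.016 and RELB over both lines 0.021. On log2(FPKM + 1), with or without the filter on mean FPKM, the difference between the lines for TNFRSF9 was −0.099. Leaving out 1 library, CXCL2 ran from −0.047 to 0.21 and CXCL16 from −0.16 to 0.0069 in SW480. In DLD-1 CXCL2 ran from −0.13 to 0.012, TNFAIP3 from −0.094 to 0.12, NFKBIA from −0.067 to 0.023 and NFKBIB from −0.0033 to 0.071. Over both lines CXCL1 ran from −0.0062 to 0.13, CXCL2 from −0.052 to 0.074, CXCL3 from −0.041 to 0.25, CXCL8 from −0.068 to 0.00021, CXCL16 from −0.056 to 0.027, NFKBIA from −0.010 to 0.042 and RELB from −0.069 to 0.014. The SW480 counts of CCL20 are small, and 2 libraries per group bound the precision of every value here.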
